A study of Homo sapiens with 6 samples.

Results

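The 10 genes described here encode the FOS and JUN subunits of the transcription factor AP-1 and 3 factors induced or dimerized with them. They were the FOS family (FOS, FOSB, FOSL1 and FOSL2), the JUN family (JUN, JUNB and JUND), the related leucine zipper genes ATF3 and BATF3, and the zinc finger gene EGR1. They were chosen by name, through their Entrez Gene identifiers, out of 18795 genes in the expression table. All 10 reached the mean of 1 FPKM over the libraries that was required for testing, as did 12454 genes in all. RNA was sequenced from sorted cells of 2 human breast cancer lines, MDA-MB-468 and HCC70. In each line cells were sorted into 3 populations by antibody staining, namely K18+Vim+ (keratin 18 with vimentin), K18+K14+ (keratin 18 with keratin 14) and K18+ (keratin 18 alone). Keratin 18 is a filament protein of luminal cells, keratin 14 one of basal cells, and vimentin one of mesenchymal cells. Every population was detached with trypsin-EDTA, fixed in methanol, stained and sorted in the same way, and no library of unsorted cells was used here. Each line gave 1 library per population, so n = 2 per population and the lines served as the replicates. MDA-MB-468 was grown in Leibovitz L15 medium and HCC70 in RPMI, both with serum, so that line and medium cannot be told apart. Nothing in the labels says that libraries of a line came from separate cultures, and p-values therefore measure only how far these libraries disagree.

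AP-1 is a dimer of leucine zipper proteins. JUN proteins pair with each other or with a FOS protein, FOS proteins need a JUN partner, and ATF3 and BATF3 also pair with JUN proteins. FOS, FOSB, JUN, JUNB, ATF3 and EGR1 are immediate early genes, whose transcripts appear within minutes of growth factor or stress signals through pre-existing factors such as SRF, CREB and JUN itself, and decay again soon after. FOSL1 is known as a slower, ERK-dependent member that is high in mesenchymal-like breast cancer cells, JUND as the member present in resting cells, and BATF3 from dendritic and T cells.

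The promoters of 5 members are shown as examples of matches to motifs bound by CREB, ATF, JUN or SRF proteins. Elements beyond the windows described next were not searched, so a motif not found here can lie outside them. The table of RefSeq promoters (GRCh38.p14) held windows of 300 bases, from 250 bases before to 50 bases after the transcription start. It had 9 windows for 8 of the members, with a pair of starts for ATF3. FOSL1 and BATF3 are named only. The 150 bases before the start are printed 5′ to 3′ on the strand of the gene, and capitals mark the motifs found by search on both strands. The stretches are chr14:75278678-75278827 on the plus strand, chr19:45467846-45467995 on the plus strand, chr5:138465329-138465478 on the plus strand, chr1:58784048-58784197 on the minus strand and, for the upstream ATF3 start, chr1:212565257-212565406 on the plus strand.
FOS: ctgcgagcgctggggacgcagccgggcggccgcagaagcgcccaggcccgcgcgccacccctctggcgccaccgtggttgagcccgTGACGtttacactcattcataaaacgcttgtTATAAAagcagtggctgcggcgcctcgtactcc
FOSB: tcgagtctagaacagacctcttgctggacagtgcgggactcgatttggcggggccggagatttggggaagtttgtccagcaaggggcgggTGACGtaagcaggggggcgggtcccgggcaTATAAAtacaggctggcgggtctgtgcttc
EGR1: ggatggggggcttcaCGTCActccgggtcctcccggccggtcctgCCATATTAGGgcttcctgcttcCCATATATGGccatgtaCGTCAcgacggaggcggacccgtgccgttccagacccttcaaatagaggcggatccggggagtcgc
JUN: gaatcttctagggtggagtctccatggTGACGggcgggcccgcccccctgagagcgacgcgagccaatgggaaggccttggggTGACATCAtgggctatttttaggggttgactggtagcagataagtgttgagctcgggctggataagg
ATF3: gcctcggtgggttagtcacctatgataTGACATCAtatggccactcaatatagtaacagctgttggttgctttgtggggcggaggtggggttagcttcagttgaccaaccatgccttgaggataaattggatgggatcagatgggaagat
FOS and FOSB had the same arrangement in these windows, a CRE core (TGACG, bound by CREB and ATF proteins) with a TATA box (TATAAA) downstream of it. In FOS they began at bases -64 and -33, and in FOSB at -60 and -30, counted from the start. JUNB, whose letters are not printed, also held a CRE core and a TATA box, beginning at -137 and -31. EGR1 held 2 CArG boxes, the element bound by SRF, beginning at -105 and -83, with a CRE core on either side, read on the other strand as CGTCA. JUN held the octamer TGACATCA, a site of JUN and ATF2, at -67, and the upstream ATF3 window held the same octamer at -123. Of all 35116 windows of this length in the table, 24.6% held TGACG, 11.5% TATAAA, 2.61% TGACATCA, 1.29% a CArG box, 7.71% the AP-1 element TGANTCA and 1.85% the full CRE TGACGTCA, which itself contains the core on both strands. Among the 9 member windows the core was found in 7, the letters TATAAA in 4 and the octamer in 2. The CArG box (EGR1), TGANTCA (FOSL2) and TGACGTCA (JUND) were found in 1 each. In the downstream ATF3 window TATAAA began at -230, far from its place in FOS, FOSB and JUNB, and is not called a TATA box. A match describes the letters of the window and is not evidence of binding in these cells.

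**Figure D1:**
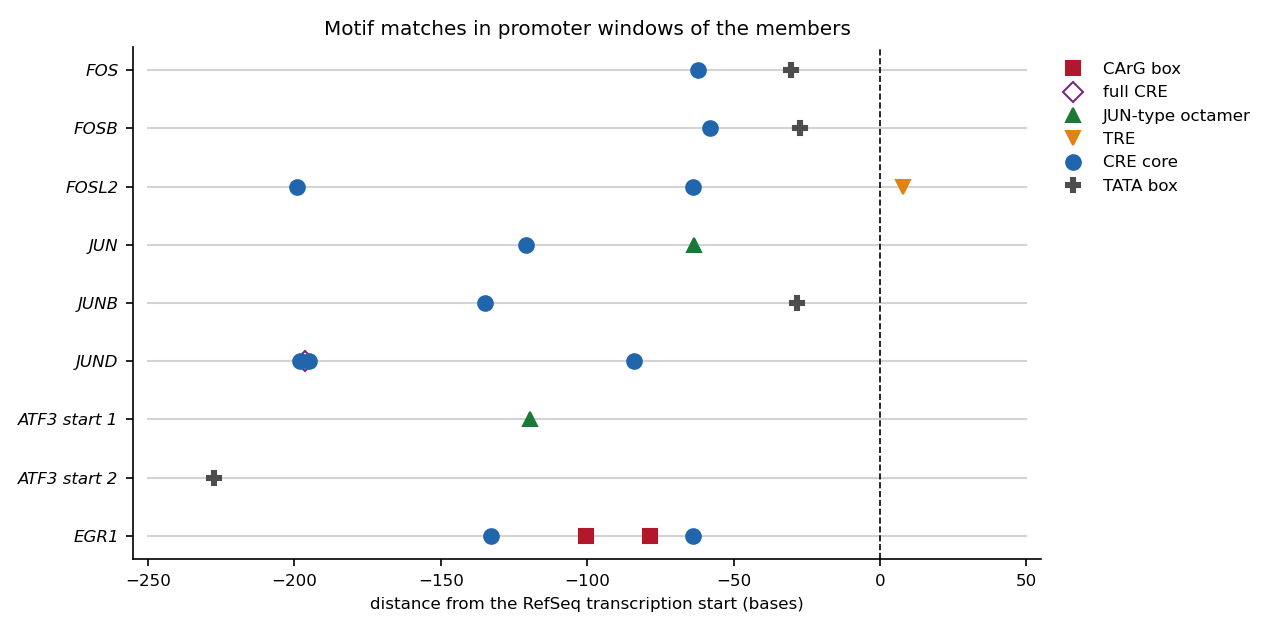
Motif matches in the 9 RefSeq promoter windows of 8 members, by distance in bases from the transcription start (dashed line), with 1 row per window and 1 symbol per motif. The CRE core begins at -64 in FOS and at -60 in FOSB, and EGR1 is the row with CArG boxes. The TATA box symbol marks the letters TATAAA, which begin at -230 at the downstream ATF3 start.

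Values are FPKM as deposited, which are fragments scaled to transcript length and library size, so that levels can be compared between genes. How many reads lie behind a value is unknown. A lowest value of 0.1 FPKM stands in the table for genes with little or no signal, and no member was listed there in any library. The median over the tested genes lay between 8.12 and 11.8 FPKM in the 6 libraries. The sort antigens followed the sort in HCC70. VIM stood at 54.8 FPKM in K18+Vim+ cells, against 13.4 FPKM in K18+ cells, and KRT14 at 48.6 FPKM in K18+K14+ cells, against 15.3 FPKM in K18+ cells. One library went against its label. MDA-MB-468 is known to lack SMAD4 and RB1 and to have an amplified EGFR, and the K18+Vim+ library labelled MDA-MB-468 listed SMAD4 at 5.19 FPKM, RB1 at 6.68 FPKM and EGFR at 10.4 FPKM. In the K18+K14+ and K18+ libraries of that line, SMAD4 was at most 0.566 FPKM, RB1 at most 0.307 FPKM and EGFR at least 70.7 FPKM. The Pearson correlation of that library with the K18+ library of its line, across genes on a log2 scale, was 0.828, against 0.919 for MDA-MB-468 K18+K14+ and 0.971 for HCC70 K18+Vim+. KRT18, the antigen common to all gates, stood at 67.7 FPKM in it, against 464 FPKM in MDA-MB-468 K18+. Fits that rest on this library are given with and without it, and counts over both lines are followed by those of HCC70 alone. Wherever K18+Vim+ values are given under the label MDA-MB-468, they are those of this library.

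FOS, the founding member of its family, had the widest range of the 10 genes, 58.8-fold over the 6 libraries and 18.1-fold without the K18+Vim+ library labelled MDA-MB-468. It stood at 2.55, 8.26 and 11.1 FPKM in the K18+Vim+, K18+K14+ and K18+ libraries of MDA-MB-468, against 76.6, 93.5 and 149.7 FPKM in those of HCC70. All 3 HCC70 libraries lay above all 3 libraries labelled MDA-MB-468, and in both lines the K18+ library was the highest. FOSB, the closest relative of FOS, was far lower but had the same order of lines. It stood at 0.626, 0.619 and 0.966 FPKM in the MDA-MB-468 libraries, against 2.05, 2.39 and 4.38 FPKM in the HCC70 libraries, in the same order of populations. FOSL1 (FRA-1) stood at 0.947, 7.96 and 3.29 FPKM in the MDA-MB-468 libraries and at 3.69, 4.25 and 3.15 FPKM in the HCC70 libraries. The lines overlapped. The lowest value was in the K18+Vim+ library labelled MDA-MB-468, and among the other 5 libraries FOSL1 spanned 3.15 to 7.96 FPKM. FOSL2 (FRA-2) stood at 1.96, 4.28 and 7.44 FPKM in MDA-MB-468 and at 7.27, 4.99 and 6.61 FPKM in HCC70. Its locus overlaps the antisense gene FOSL2-AS1, and since it is not stated whether counting used the strand, its value is uncertain to that extent.

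Of the JUN family, JUN was highest in the K18+Vim+ and lowest in the K18+K14+ library under both line labels. It stood at 75.9, 7.95 and 20.6 FPKM in the K18+Vim+, K18+K14+ and K18+ libraries of MDA-MB-468, against 34.9, 17.4 and 23.7 FPKM in HCC70. JUNB, a partner that restrains JUN in several settings, stood at 9.55, 58.4 and 73.1 FPKM in the MDA-MB-468 libraries, all below the HCC70 libraries, where it was nearly constant at 96.7, 101 and 99.1 FPKM. The gene overlaps HOOK2, which had 56.3, 137 and 214 FPKM in MDA-MB-468 and 355, 219 and 252 FPKM in HCC70, and reads of the pair cannot be told apart if the strand was not used. JUND stood at 50.3, 209 and 56.5 FPKM in MDA-MB-468 and at 82.1, 64.2 and 65.4 FPKM in HCC70, so that 5 libraries lay within 50.3 to 82.1 FPKM and MDA-MB-468 K18+K14+ stood above them.

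The last 3 members did not share 1 pattern. ATF3, a stress-induced factor, stood at 23.0, 4.22 and 7.61 FPKM in the K18+Vim+, K18+K14+ and K18+ libraries of MDA-MB-468, and at 14.6, 11.1 and 11.2 FPKM in HCC70. EGR1 stood at 2.21, 13.9 and 15.6 FPKM in MDA-MB-468 and at 24.7, 15.7 and 33.5 FPKM in HCC70, and all HCC70 values were higher. BATF3 stood at 16.5, 3.11 and 1.61 FPKM in MDA-MB-468 and at 9.64, 2.22 and 1.58 FPKM in HCC70. Both K18+Vim+ values of BATF3 lay above all 4 others, and the K18+ values of the lines were nearly equal.

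**Figure D2:**
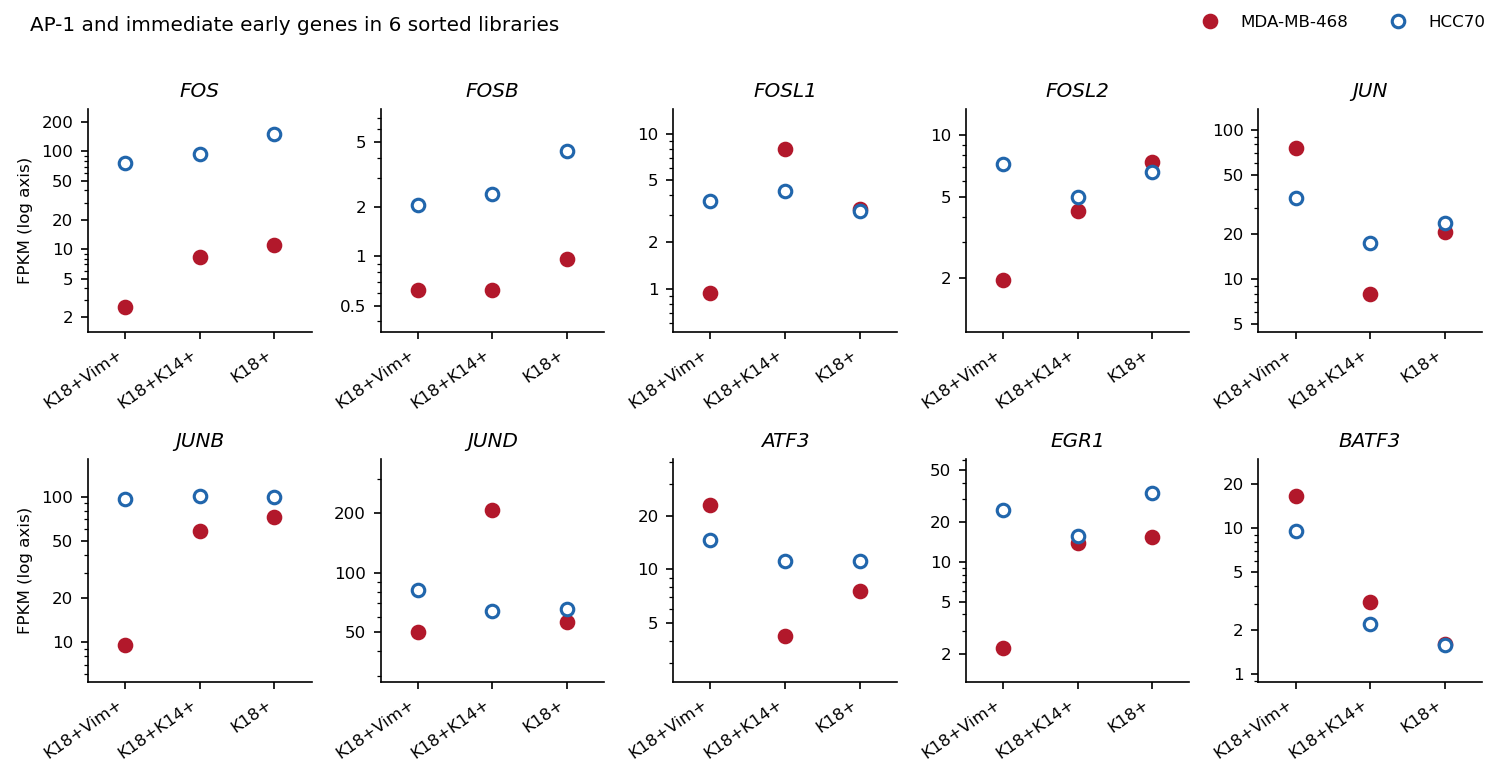
FPKM of the 10 genes (log axis, 1 panel per gene) in the K18+Vim+, K18+K14+ and K18+ libraries of MDA-MB-468 (filled) and HCC70 (open), with 1 point per library and no error bars because each is a single library. FOS lies between 2.55 and 11.1 FPKM in MDA-MB-468 and between 76.6 and 149.7 FPKM in HCC70, and BATF3 is highest in K18+Vim+ under both line labels, of which the MDA-MB-468 one is in doubt.

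The make-up of the FOS family differed between the lines. FOS was 41.9%, 39.1% and 48.6% of the summed FPKM of the family in the K18+Vim+, K18+K14+ and K18+ libraries of MDA-MB-468, against 85.5%, 88.9% and 91.4% in those of HCC70. FOSL1 and FOSL2 took up most of the remainder. FOSL1 was 37.7% of the family in MDA-MB-468 K18+K14+, and at most 15.6% in every other library. The family summed to 6.08, 21.1 and 22.8 FPKM in MDA-MB-468 and to 89.6, 105 and 164 FPKM in HCC70. The JUN family varied less in total, with sums of 136, 275 and 150.2 FPKM in MDA-MB-468 and 214, 182 and 188 FPKM in HCC70. FOS family transcripts were therefore 0.0447, 0.0766 and 0.152 times those of the JUN family in MDA-MB-468, and 0.419, 0.576 and 0.871 times in HCC70. In MDA-MB-468 JUN was 55.9% of the JUN family in the library labelled K18+Vim+, 2.89% in K18+K14+ and 13.7% in K18+, and JUND was 75.9% in K18+K14+. In HCC70 the make-up varied less, with JUN at 9.55% to 16.3% and JUNB at 45.3% to 55.3%. These shares were not tested.

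**Figure D3:**
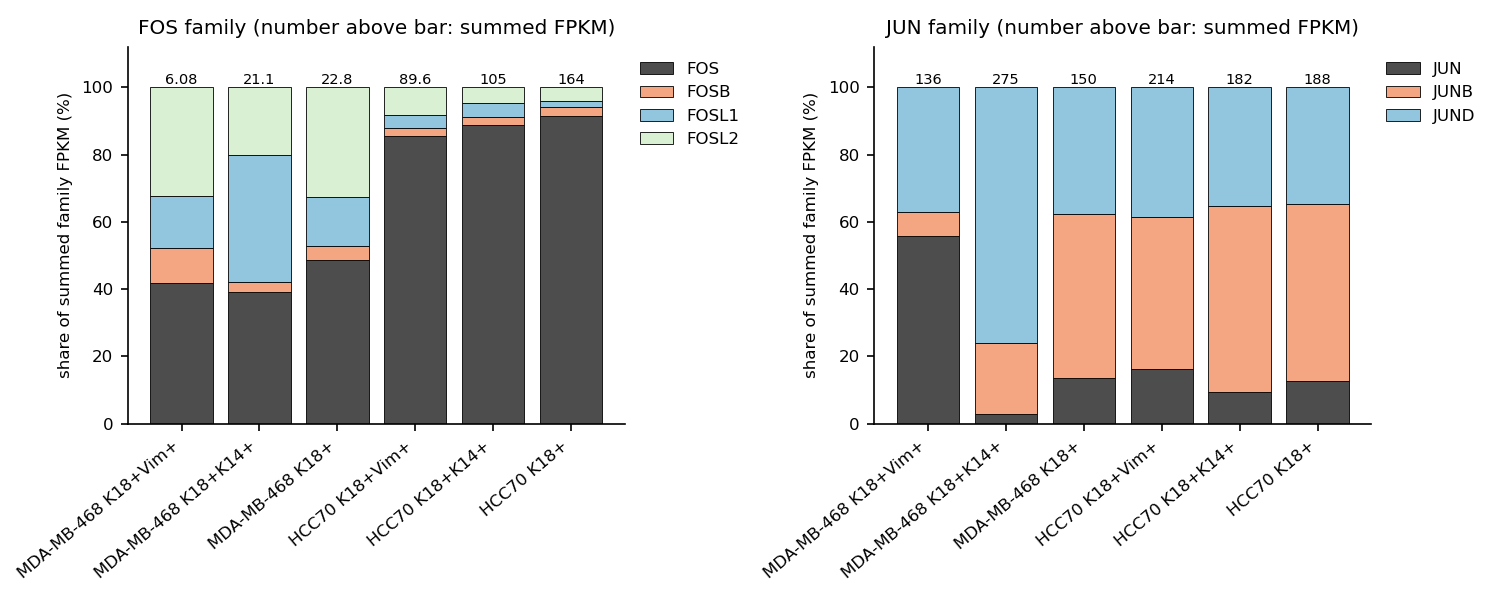
Share of each gene in the summed FPKM of the FOS family (left) and the JUN family (right), in percent, with 1 bar per library and the sum in FPKM above it. FOS fills 85.5% to 91.4% of the bar in HCC70 and 39.1% to 48.6% in MDA-MB-468.

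The lines were compared over the K18+K14+ and K18+ libraries, with population as a term, because the K18+Vim+ library labelled MDA-MB-468 stood apart. FOS and FOSB were lower in MDA-MB-468 than in HCC70, and no member was higher by the test. FOS averaged 9.66 ± 1.99 FPKM in MDA-MB-468 and 122 ± 39.7 FPKM in HCC70 (SD, n = 2 each). The 2 values of a line are its K18+K14+ and K18+ libraries. This SD, like that of FOSB below, therefore holds the difference between populations and is not a spread of replicates of a line. The fitted difference of FOS on the log2(FPKM + 1) scale was -3.50 ± 0.34 (SE, limma adjusted p = 0.000276). FOS was 11.3-fold lower in MDA-MB-468 than in HCC70 in K18+K14+ cells and 13.5-fold lower in K18+ cells, and 30.1-fold lower in the K18+Vim+ libraries, which the fit did not use. FOSB averaged 0.793 ± 0.245 FPKM in MDA-MB-468 and 3.38 ± 1.41 FPKM in HCC70 (SD, n = 2 each), with a fitted difference of -1.26 ± 0.32 (SE, limma adjusted p = 0.0211). The FOSB values of MDA-MB-468 lie under 1 FPKM, and the gene reached the mean required for testing through HCC70, the line in which it is high, so that its call supports nothing further. The call of FOSB did not hold without the population term (limma adjusted p = 0.0682) or with all 6 libraries (limma adjusted p = 0.0766), while that of FOS held in both (limma adjusted p = 0.00643 and 0.00473). With no filter on low values 0 of all genes passed, and FOS had a limma adjusted p of 0.212. Lower calls made up 15.5% of all genes tested, higher calls 11.5% and both together 27.0%, so that the 2 of 10 members called are near the background.

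Further members had libraries that did not overlap between the lines. JUNB, ATF3 and EGR1 were, with FOS and FOSB, the 5 of 10 members whose MDA-MB-468 libraries both lay below both HCC70 libraries, against 32.2% of all genes, and 0 members lay above, against 30.4% of all genes. For EGR1 the gap was slight, with 15.6 FPKM in MDA-MB-468 K18+ and 15.7 FPKM in HCC70 K18+K14+. Over all 6 libraries 4 members lay wholly below (FOS, FOSB, JUNB and EGR1), against 21.0% of all genes, and 0 above, against 20.1%. The fitted differences of the 8 members that did not pass ranged from -0.86 for ATF3 (limma adjusted p = 0.104) to 0.74 for JUND (limma adjusted p = 0.282). FOSL2 differed by -0.02 ± 0.34 (SE, limma adjusted p = 0.976). The median fitted difference was -0.61 over the members and -0.05 over all genes tested.

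**Figure D4:**
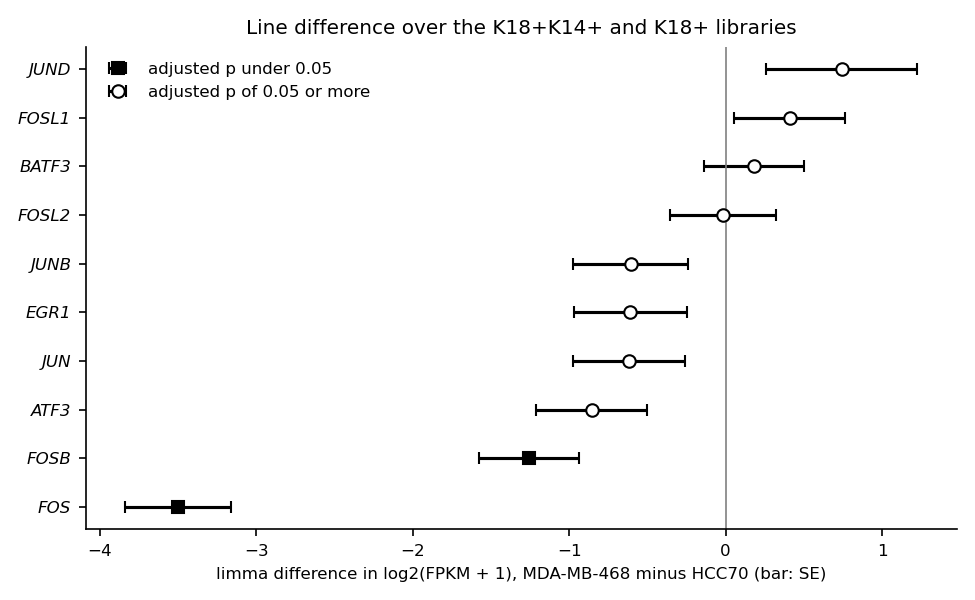
Fitted limma difference of each gene in log2(FPKM + 1), MDA-MB-468 minus HCC70, over the K18+K14+ and K18+ libraries (n = 2 per line), with the SE as bars and filled squares for an adjusted p under 0.05. FOS at -3.50 and FOSB at -1.26 passed, and the other 8 genes lie between -0.86 and 0.74.

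In K18+K14+ against K18+ cells no member passed the test. Most of the members had lower values in K18+K14+ cells of both lines, as did a large share of all genes. In bulk RNA, fewer cells with a transcript and less of it per cell cannot be told apart, here and in the comparisons that follow. JUN had the largest difference in MDA-MB-468 among those lower in both, with log2 ratios of FPKM + 1 of -1.27 in MDA-MB-468 and -0.42 in HCC70. FOS had -0.38 in MDA-MB-468 and -0.67 in HCC70, and FOSB -0.28 and -0.67 in the same order of lines. Together with FOSL2, ATF3 and EGR1 these were the 6 of 10 members lower in both lines, against 43.7% of all genes tested. FOSL1, at 1.06 in MDA-MB-468 and 0.34 in HCC70, and BATF3, at 0.66 and 0.32, were the 2 members higher in both lines, against 20.2% of all genes. Counts of 2-fold differences are on the log2(FPKM + 1) scale throughout, where a ratio of low values is smaller than in FPKM. Such a difference in both lines was reached by 0 members in either direction, against 0.257% of all genes for higher and 0.739% for lower values. With limma, 0 of the 12454 genes passed in this comparison, with 0.855 as the smallest adjusted p, and an unadjusted p under 0.05 was found for 428 genes.

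Single lines held larger values. In MDA-MB-468, FOSL1 and JUND were at least 2-fold higher in K18+K14+ cells, against 9.13% of all genes, and JUN at least 2-fold lower, against 15.5%. In HCC70, EGR1 was at least 2-fold lower, against 2.33% of all genes, and 0 members were 2-fold higher, against 0.771%. JUND was 3.70-fold higher in FPKM in MDA-MB-468 K18+K14+ than in K18+, and 0.982-fold in HCC70. In the K18+K14+ library of MDA-MB-468 short transcripts had higher ratios than long ones. Across 12055 genes, the Spearman correlation of its log2 ratio to K18+ with the longest annotated transcript was -0.302, against -0.230 in HCC70. The longest transcripts of the members ran from 1669 bases in FOSL1 to 6708 bases in FOSL2, with 1863 bases in JUND. The part of transcript length in these values was not tested.

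In K18+Vim+ against K18+ cells BATF3 was the member with the highest ratio in both lines, and it did not pass the test over all genes. Its FPKM was 10.3-fold higher in the K18+Vim+ library labelled MDA-MB-468 than in MDA-MB-468 K18+, and 6.09-fold higher in HCC70 K18+Vim+ than in HCC70 K18+. Fitting both lines gave a log2 difference of 2.40 ± 0.40 (SE, n = 2 per population, limma adjusted p = 0.863, unadjusted p = 0.00071). The estimate from HCC70 alone as K18+Vim+ was 2.13 (limma adjusted p = 0.573). Without HCC70 K18+Vim+ it was 2.67 (limma adjusted p = 0.00513), in a fit that rests on the K18+Vim+ library labelled MDA-MB-468. BATF3 was the 1 of 10 members at least 2-fold higher in both lines, against 0.377% of all genes tested, and 0 members were 2-fold lower in both, against 0.715%.

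JUN and ATF3 were also higher in K18+Vim+ under both line labels, with the larger ratios resting on the K18+Vim+ library labelled MDA-MB-468. JUN had log2 ratios of 1.84 with that library and 0.54 in HCC70, and ATF3 of 1.48 and 0.36. These and BATF3 were the 3 members higher in both lines, against 16.5% of all genes. FOS, FOSB, JUNB and EGR1 were the 4 members lower in both lines, against 33.9% of all genes. FOS had log2 ratios of -1.77 in the MDA-MB-468 libraries and -0.96 in HCC70, and FOSB of -0.27 and -0.82. JUNB (-2.81) and EGR1 (-2.37) were far lower in the MDA-MB-468 libraries, while their HCC70 ratios were -0.03 and -0.42. FOSL1 and FOSL2 were lower in the MDA-MB-468 libraries, at -1.14 and -1.51, and near equal in HCC70, at 0.17 and 0.12. In the MDA-MB-468 libraries alone 3 members (JUN, ATF3 and BATF3) were at least 2-fold higher, against 11.6% of all genes, and 5 (FOS, FOSL1, FOSL2, JUNB and EGR1) 2-fold lower, against 16.9%. The members' median was -0.71 in the MDA-MB-468 libraries and 0.15 in HCC70, against -0.04 and -0.16 over all genes. In HCC70 alone BATF3 was the 1 member at least 2-fold higher, against 1.65% of all genes, and 0 were 2-fold lower, against 3.42%, while in plain FPKM the low gene FOSB was 0.468-fold. In HCC70 alone 6 members were higher by any amount, against 34.4% of all genes, and 4 lower, against 64.5%.

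The K18+Vim+ library labelled MDA-MB-468 lay outside the range of the other 5 libraries for 9 of the 10 members. It was the highest for JUN, ATF3 and BATF3, against 24.6% of all genes, and the lowest for FOS, FOSL1, FOSL2, JUNB, JUND and EGR1, against 22.7%. With limma, 0 of 12454 genes passed in K18+Vim+ against K18+, with 0.863 as the smallest adjusted p and 532 genes at an unadjusted p under 0.05. Without HCC70 K18+Vim+, so that the K18+Vim+ library labelled MDA-MB-468 was the population's 1 library, 1500 genes passed, among them 5 members (BATF3 and JUN higher, and EGR1, FOS and JUNB lower). The identity of that library was not tested beyond the values above, and its differences from MDA-MB-468 K18+ cannot be told apart from those of its population.

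**Figure D5:**
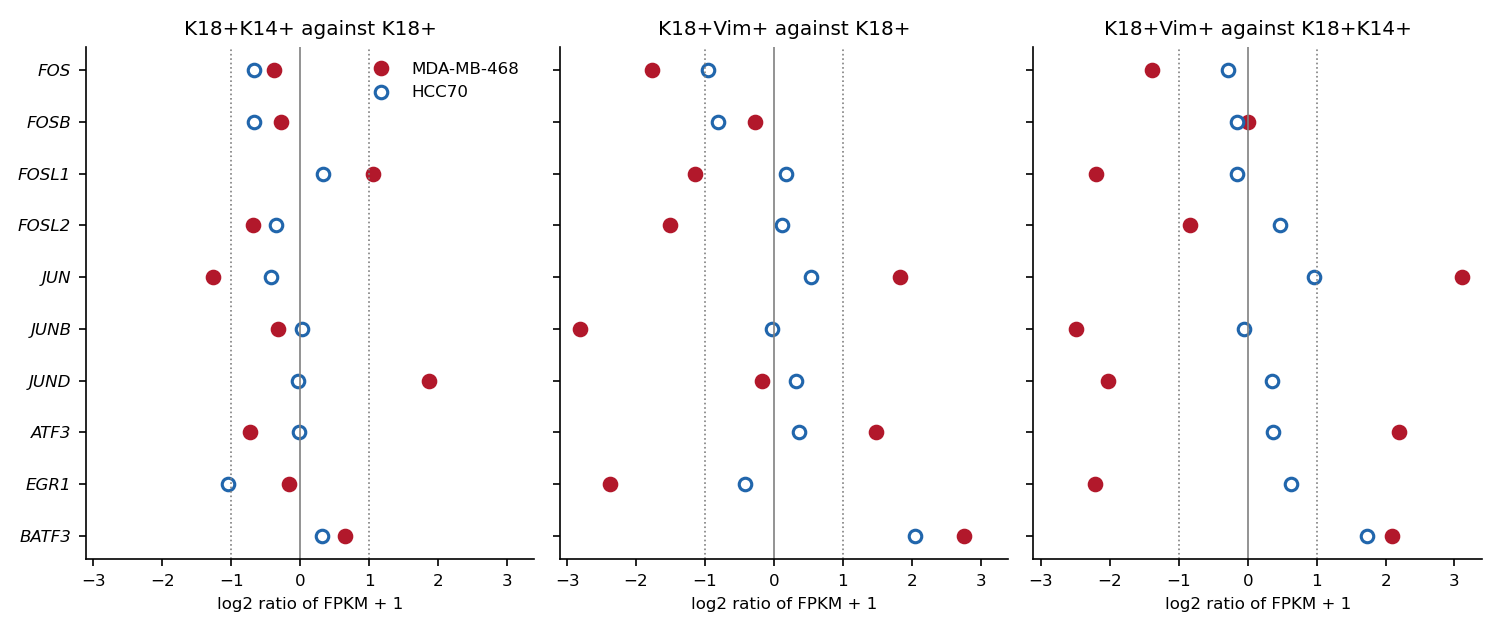
Log2 ratio of FPKM + 1 of each gene in 3 comparisons of populations, in MDA-MB-468 (filled) and HCC70 (open), with 1 library per point and dotted lines at a 2-fold difference. BATF3 lies beyond the right dotted line in both lines in both comparisons of K18+Vim+ cells, at 2.75 and 2.09 in MDA-MB-468 and at 2.04 and 1.73 in HCC70.

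Set against K18+K14+ cells, the same K18+Vim+ libraries had higher JUN, ATF3 and BATF3 in both lines, the 3 members of that kind, against 25.6% of all genes. This comparison shares its K18+Vim+ libraries with the one before. BATF3 was 5.32-fold higher in the K18+Vim+ library labelled MDA-MB-468 than in MDA-MB-468 K18+K14+ and 4.35-fold higher in HCC70, with a fitted log2 difference of 1.91 ± 0.40 (SE, n = 2 per population, limma adjusted p = 0.682). The estimate without the K18+Vim+ library labelled MDA-MB-468 was 1.64 (limma adjusted p = 0.454), and without HCC70 K18+Vim+ 2.18 (limma adjusted p = 0.0110). It was the 1 member at least 2-fold higher in both lines on the log2(FPKM + 1) scale, against 0.851% of all genes, and 0 were 2-fold lower, against 0.915%. JUN came next, with log2 ratios of 3.10 in the MDA-MB-468 libraries and 0.96 in HCC70. FOS, FOSL1 and JUNB were the 3 members lower in both lines, against 23.7% of all genes, but in HCC70 by no more than 0.28 on the log2 scale. In the MDA-MB-468 libraries alone 3 members were at least 2-fold higher, against 21.6% of all genes, and 5 at least 2-fold lower (FOS, FOSL1, JUNB, JUND and EGR1), against 18.8%, while in plain FPKM FOSL2 was 0.458-fold. In HCC70 alone BATF3 was the 1 member past 2-fold on this scale, with 3.0% of all genes higher and 2.47% lower by as much, and JUN, at 34.9 FPKM against 17.4 FPKM, lay at the border. By any amount 6 members were higher in HCC70, against 47.3% of all genes, and 4 lower, against 51.7%. EGR1 had opposite directions, with log2 ratios of -2.22 in the MDA-MB-468 libraries and 0.62 in HCC70, a difference that was not tested. With limma 0 of 12454 genes passed, with 0.547 as the smallest adjusted p and 680 genes at an unadjusted p under 0.05. Without HCC70 K18+Vim+, 1988 genes passed, among them 6 members (BATF3, JUN and ATF3 higher, and EGR1, FOSL1 and JUNB lower).

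BATF3 is best known from dendritic cells, and markers of such cells were near or at the lowest value. CLEC9A, a receptor of the dendritic cells that need BATF3, was listed at 0.1 FPKM in all 6 libraries, and XCR1, a chemokine receptor of the same cells, at 0.578 to 0.714 FPKM in the MDA-MB-468 libraries and at 0.1 FPKM in those of HCC70. PTPRC, the pan-leukocyte marker CD45, stood at 0.248 FPKM in the K18+Vim+ library labelled MDA-MB-468 and 0.739 FPKM in HCC70 K18+Vim+, against 1.41 FPKM in MDA-MB-468 K18+ and 0.788 FPKM in HCC70 K18+. The 20 immune cell markers summed to 8.16 and 63.6 FPKM in the K18+Vim+ libraries of MDA-MB-468 and HCC70, against 36.2 and 100.3 FPKM in the K18+ libraries, with 8 to 13 of them at the lowest value in each library. CD14 made up most of that sum in every library except the K18+Vim+ library labelled MDA-MB-468, where it stood at 2.44 FPKM. The 16 fibroblast, endothelial and erythroid markers summed to 6.12 to 14.9 FPKM per library, with PECAM1 at 0.1 FPKM in all. Of 8 mesenchymal markers tested 3 were higher than in K18+ under both line labels and 0 lower. The 3 were VIM, the antigen of the sort, MMP2 and SPARC. MMP2 and SPARC reached the filter through the libraries labelled MDA-MB-468, with means of 0.904 and 0.324 FPKM in HCC70. They were highest in the K18+Vim+ library of that label, at 3.13 and 7.14 FPKM. CDH2 and TWIST1 reached the filter likewise, each with a mean of 0.1 FPKM in HCC70. The count over both labels therefore supports nothing further. In HCC70 alone 5 of the 8 were higher and 1 lower, against 34.4% and 64.5% of all genes. The lower one was SNAI2, at 2.49 FPKM in HCC70 K18+Vim+ against 13.5 FPKM in HCC70 K18+. The 10 listed summed to 312, 21.2 and 41.3 FPKM in the K18+Vim+, K18+K14+ and K18+ libraries labelled MDA-MB-468 and to 150.4, 35.7 and 84.2 FPKM in those of HCC70, while BATF3 was higher in K18+K14+ than in K18+. VIM, a sort antigen, made up most of the first sum, and FN1 at 81.6 FPKM and VIM at 54.8 FPKM most of that of HCC70 K18+Vim+. The part of these markers in the BATF3 values was not tested.

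BATF3 and ATF3 lie close together on chromosome 1, with GARIN4 the 1 protein-coding gene between them in the GRCh38.p14 annotation, and both were higher in K18+Vim+ under both line labels. GARIN4 was listed at 0.1 FPKM in all libraries. NSL1, the next gene beyond BATF3, stood at 20.0 FPKM in the K18+Vim+ library labelled MDA-MB-468, against 13.5 FPKM in MDA-MB-468 K18+, and at 6.08 FPKM in HCC70 K18+Vim+, against 11.2 FPKM in HCC70 K18+, the direction of BATF3 in the first pair and the opposite one in the second.

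Genes around the AP-1 members were read as lists. Of 23 leucine zipper partners and relatives 21 were tested. In the comparison of the lines 0 were higher and 4 lower in MDA-MB-468. These were MAFK, at -2.42 on the log2 scale (limma adjusted p = 0.0258), JDP2, a repressor that binds JUN (-1.47, limma adjusted p = 0.0183), BATF, the relative of BATF3 (-1.28, limma adjusted p = 0.0306), and NFE2L1 (-1.19, limma adjusted p = 0.0323). The median was -0.29, against -0.05 over all genes. BATF stood at 28.4 and 16.7 FPKM in the K18+K14+ and K18+ libraries of MDA-MB-468, against 54.4 and 54.0 FPKM in HCC70. Its level in the K18+Vim+ library labelled MDA-MB-468 was 1.19 FPKM and that in HCC70 K18+Vim+ 54.2 FPKM, so it did not have the pattern of BATF3.

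Other immediate early genes went both ways between the lines. Of 28 tested, 6 passed as higher and 3 as lower in MDA-MB-468. CCN2 (CTGF), a matricellular protein gene driven by YAP and SRF, averaged far higher in MDA-MB-468, with 53.5 and 28.3 FPKM in its K18+K14+ and K18+ libraries against 0.486 and 0.38 FPKM in HCC70, a difference of 4.80 on the log2 scale (limma adjusted p = 8e-05). It too reached the filter through the line in which it is high. CCN1 (CYR61), its relative, was higher by 2.18 (limma adjusted p = 0.00256) and IER3, an early survival gene, by 1.90 (limma adjusted p = 0.0156). TRIB1, a pseudokinase gene, was lower, at -3.01 (limma adjusted p = 0.00057). The median of this list was -0.21. FOS and the first 3 of these genes thus differed in opposite directions between the same libraries.

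Upstream and downstream of AP-1 the lines differed at single genes. Of 28 kinases and SRF factors 3 passed as higher and 2 as lower in MDA-MB-468. EGFR, amplified in this line, was higher by 2.30 (limma adjusted p = 0.00297) and HRAS by 1.38 (limma adjusted p = 0.0265), while MAPK3, which encodes ERK1, was lower, at -2.14 (limma adjusted p = 0.00359). The remaining higher gene, MAP2K6 (1.41, limma adjusted p = 0.0183), reached the filter through MDA-MB-468, with a mean of 0.942 FPKM in HCC70. MAPK3 stood at 36.8 and 22.3 FPKM in the K18+K14+ and K18+ libraries of MDA-MB-468, against 148 and 114 FPKM in HCC70. Of 14 ERK output and feedback genes 1 passed as higher, the phosphatase gene DUSP4 (1.28, limma adjusted p = 0.0189), which reached the filter through MDA-MB-468 with a mean of 0.402 FPKM in HCC70, and 2 as lower, ERRFI1, an inhibitor of EGFR (-1.54, limma adjusted p = 0.0158), and EPHA2 (-1.24, limma adjusted p = 0.0303). Of 18 tested textbook targets of AP-1, out of 27 listed, 1 passed as higher and 4 as lower. Among those lower were LAMB3, a laminin subunit gene (-2.35, limma adjusted p = 0.00475), and the keratin gene KRT16 (-1.59, limma adjusted p = 0.0211), and KRT14, a sort antigen, was the higher one (2.04, limma adjusted p = 0.0060). LAMB3 stood at 17.8 and 5.33 FPKM in the K18+K14+ and K18+ libraries of MDA-MB-468, against 56.0 and 53.2 FPKM in HCC70. Of 11 heat shock genes, which respond to stress of the cell, 0 passed as higher and 2 as lower, DNAJA1 and BAG3, each at -1.11. The medians were -0.13 for the kinases, -0.08 for ERK output, -0.04 for the targets and 0.76 for the heat shock genes, against -0.05 over all genes. In each list the share called either way can be read against 27.0% of all genes.

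Between populations no gene of these lists passed the test with limma, and their values are a description. In K18+K14+ against K18+ cells, lower values in both lines were found for 15 of 28 kinases and SRF factors and higher ones for 6. MAP3K1, a kinase that feeds JNK, had 1.89 FPKM in K18+K14+ and 5.81 FPKM in K18+ cells of MDA-MB-468, and 2.86 and 7.80 FPKM in HCC70. MAPK8, which encodes JNK1, the kinase of JUN, had 4.22 FPKM in K18+K14+ and 11.1 FPKM in K18+ cells of MDA-MB-468, and 5.73 and 10.5 FPKM in HCC70. HRAS was among the higher, at 197 FPKM in K18+K14+ and 115 FPKM in K18+ cells of MDA-MB-468, and at 78.1 and 42.3 FPKM in HCC70. The leucine zipper relatives had 9 of 21 genes lower and 5 higher in both lines, with ATF2, a partner of JUN, at 3.98 FPKM in K18+K14+ and 11.6 FPKM in K18+ cells of MDA-MB-468, and 4.64 and 10.1 FPKM in HCC70. Of the other immediate early genes 15 of 28 were lower and 5 higher, and of ERK output genes 7 of 14 were lower and 2 higher. Among 18 textbook targets tested 5 were lower and 6 higher in both lines, with the sort antigen KRT14 among the higher. Heat shock genes had 3 of 11 lower and 1 higher. The background was 43.7% for lower and 20.2% for higher values. Ratios of this comparison fell with transcript length in both lines, as given above, and the part of length in these lists was not tested.

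In K18+Vim+ against K18+ cells, 10 of 14 ERK output genes, 13 of 21 leucine zipper relatives, 14 of 28 immediate early genes, 15 of 28 kinases and SRF factors, 11 of 18 textbook targets and 5 of 11 heat shock genes were lower in both lines, against 33.9% of all genes. Higher in both lines were 0, 1, 3, 2, 2 and 0 genes of these lists in the same order, against 16.5%. PLK2, an early kinase gene, stood at 29.3 FPKM in the K18+Vim+ library labelled MDA-MB-468 and 84.8 FPKM in HCC70 K18+Vim+, against 322 FPKM in MDA-MB-468 K18+ and 165 FPKM in HCC70 K18+. CCND1, which encodes cyclin D1, stood at 3.63 and 11.5 FPKM in the same K18+Vim+ libraries, against 34.5 and 17.9 FPKM in the K18+ libraries. NFE2L2, a leucine zipper factor of the oxidative stress response, stood at 18.6 and 45.1 FPKM in the K18+Vim+ libraries of MDA-MB-468 and HCC70, against 62.0 and 70.4 FPKM in the K18+ libraries. VIM, a textbook AP-1 target and sort antigen, was one of the 2 targets that were higher. In HCC70 alone 11 of 14 ERK output genes, 16 of 21 leucine zipper relatives, 18 of 28 immediate early genes, 22 of 28 kinases and SRF factors, 12 of 18 targets and 11 of 11 heat shock genes were lower, against 64.5% of all genes. The list medians in HCC70 were -0.19 for ERK output, -0.18 for leucine zipper relatives, -0.12 for immediate early genes, -0.32 for kinases, -0.27 for targets and -0.45 for heat shock genes, against -0.16 over all genes.

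In K18+Vim+ against K18+K14+ cells RHOB, an early GTPase gene, stood at 71.8 FPKM in the K18+Vim+ library labelled MDA-MB-468 and 3.76 FPKM in HCC70 K18+Vim+, against 4.46 FPKM in MDA-MB-468 K18+K14+ and 1.12 FPKM in HCC70 K18+K14+. IER3 stood at 28.8 and 88.4 FPKM in the same K18+Vim+ libraries, against 648 and 153 FPKM in the K18+K14+ libraries. TGFB1, which encodes transforming growth factor beta and is a textbook AP-1 target, stood at 24.1 and 27.3 FPKM in the K18+Vim+ libraries, against 8.49 and 9.87 FPKM in the K18+K14+ libraries. In this comparison 7 of 28 immediate early genes had higher and 7 lower values in both lines. For the 28 kinases and SRF factors these were 8 and 7, against 25.6% and 23.7% of all genes. Of 18 textbook targets 3 were higher in both lines, TGFB1 and the sort antigen VIM among them. Lower in both lines were 10 targets, the sort antigen KRT14 among them. Higher and lower in both were 3 and 5 of 14 ERK output genes and 5 and 7 of 21 leucine zipper relatives. For 11 heat shock genes these were 1 and 6. In HCC70 alone 16 immediate early genes were higher and 12 lower, and 10 and 18 of the kinases and SRF factors, against 47.3% and 51.7% of all genes. The HCC70 counts were 7 and 11 for targets, 5 and 9 for ERK output, 10 and 11 for leucine zipper relatives and 2 and 9 for heat shock genes.

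The genes whose levels ran closest to a member were found by the Pearson correlation of log2(FPKM + 1) over the 6 libraries, among 10203 genes. With 6 libraries that share a line or a population, high values are common, and no p is given. Closest to FOS were SERPINB5, a serpin of epithelial cells (r = 0.999), B2M, the light chain of MHC class I (r = 0.996), and MBP (r = 0.996), and 423 genes had r above 0.95. Closest to FOSL1 were ZNF524 (r = 0.996), VMO1 (r = 0.995) and MACROD1 (r = 0.993), with 81 genes above 0.95. Closest to BATF3 were CCDC142 (r = 0.958), MYL5 (r = 0.957) and VIM (r = 0.957), and no more than 5 genes had r above 0.95. Over the 5 libraries without the K18+Vim+ library labelled MDA-MB-468, r was 0.994 to 0.999 for the 3 genes named for FOS, 0.982 to 0.990 for those of FOSL1 and 0.927 to 0.949 for those of BATF3. These genes had been picked over all 6 libraries, and no new ranking was made over the 5, so their high r was favoured by the choice.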

How the data were processed

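The deposited table gives messenger RNA levels of the 6 sorted libraries as FPKM per Entrez Gene ID, made by the authors. Per the submitters' processing notes reads were aligned with TopHat2 and the build was GRCh37. Not given in the sources used here were the aligner's version, the counting tool, the annotation, the use of strand and the lanes. From 18807 rows, 7 rows holding blanks and the lower of 2 rows for each of 5 repeated IDs were dropped. A symbol was matched for 18732 of the remaining 18795 genes. The depth is unknown, so no counting interval is given. RNA recovered from fixed cells can be broken, which bears on long and short transcripts differently.

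The 12454 genes whose mean reached 1 FPKM were tested on the log2(FPKM + 1) scale with limma 3.58.1 (R 4.3.3, lmFit and eBayes with trend). Populations were fitted over all 6 libraries with population and cell line as terms (2 residual degrees of freedom), and the lines over the K18+K14+ and K18+ libraries (1 residual degree of freedom). P-values were adjusted by Benjamini-Hochberg over all genes tested, at a threshold of 0.05. Differences on this scale understate those of low genes. The libraries of a population pair by cell line, from the labels, and the deviations of a line from the population means correlated across genes at 0.796, 0.555 and 0.475 in the 3 pairs of populations. Python 3.11.15 with pandas 2.3.3, numpy 2.4.6 and matplotlib 3.10.9 was used for tables and figures.

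The members and lists were chosen with earlier results of these data known, as was the choice to leave the K18+Vim+ libraries out of the comparison of the lines. All members are given in every library. A fitted difference between populations is printed for a member at least 2-fold apart in the same direction in both lines. Genes of the other lists are the up to 4 of the same direction in both lines ranked by the log2 ratio of the line in which it was smaller. For the lines, the list genes with the largest differences among those passed were named, a choice made after their values were seen, as was that of BATF's levels, the neighbours of BATF3 and the range of the non-passing members. Promoter sequences are from RefSeq (GRCh38.p14), not from the build of the reads. Alternatives were other pseudocounts, filters, normalizations, limma without trend, no block, all 6 libraries for the lines, and leaving out each library.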

Additional observations from a re-analysis of the deposited data

Results flagged for a closer look

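EGR1 was flagged because its direction differed between the lines in K18+Vim+ against K18+K14+ cells. The log2 ratio of FPKM + 1 was -2.22 in the MDA-MB-468 libraries, which rest on the K18+Vim+ library of that label, and 0.62 in HCC70, each past 1.5-fold. EGR1 stood at 2.21 FPKM in that library and 24.7 FPKM in HCC70 K18+Vim+, against 13.9 FPKM in MDA-MB-468 K18+K14+ and 15.7 FPKM in HCC70 K18+K14+. With 1 library per line and population the difference was not tested.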

How the results depend on the processing

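In the comparison of the lines the count of members past the threshold, 2 as reported, was 0 with no filter on low values, 1 with a filter of 5 FPKM, which FOSB does not reach, 1 with no replicate block (population) and 1 with all 6 libraries. The count of all genes, 3366 as reported, was 0 with no filter, 1444 with no replicate block and 1522 with all 6 libraries. With no filter FOS had a limma adjusted p of 0.212 and FOSB of 0.219, at unaltered differences, and the lowest values, equal in all libraries, then enter the fit of the spread. Without the block FOSB had 0.0682, and leaving out the block (cell line or population) changed the call of no other member. Over 13 alternatives the difference of FOS ranged from -3.82 to -3.08, and over 12 that of FOSB from -1.93 to -0.52. Leaving out 1 of the 4 libraries leaves no residual degree of freedom, and gave -3.64 to -3.35 for FOS and -1.45 to -1.06 for FOSB with no test.

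Between populations, leaving out each library in turn gave 0 to 1 genes in K18+K14+ against K18+, 0 to 5 members and 0 to 1500 genes in K18+Vim+ against K18+, and 0 to 6 members and 0 to 1988 genes in K18+Vim+ against K18+K14+. The upper ends of the K18+Vim+ comparisons came without HCC70 K18+Vim+, when the lone K18+Vim+ library labelled MDA-MB-468 is assumed to vary like the others. The single gene, in both comparisons of K18+K14+, came without HCC70 K18+K14+. Otherwise these counts stayed at 0, which says little of stability with the smallest adjusted p at 0.547 or above. Over 15 alternatives the difference of BATF3 ranged from 1.43 to 2.91 against K18+ (limma adjusted p of 0.00513 or more) and from 1.22 to 2.22 against K18+K14+ (limma adjusted p of 0.0110 or more). After quantile normalization 1 member, against 0, was 2-fold lower in both lines in K18+Vim+ against K18+. The unknown depth limits what can be said of FOSB and other genes near 1 FPKM.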
